A study of Mus musculus with 6 samples.

Results

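Lymphatic endothelial cells (LECs), the cells that line lymphatic vessels, made up 112 of the 15622 cell barcodes kept from dissociated mouse pulmonary artery (PA) tissue. They were chosen by their transcripts. A barcode had to hold at least 500 unique molecular identifiers (UMIs, 1 for each captured transcript), at least 300 genes and no more than 20% mitochondrial UMIs. It also needed at least 3 UMIs in sum of Prox1, Mmrn1, Flt4, Reln and Ccl21a from at least 2 of these 5 genes, more than 2 times the sum of 5 genes of other cell types (Ptprc, Myh11, Pdgfra, Msln and Scgb1a1), and at least 1 UMI of the endothelial genes Pecam1, Cdh5 or Egfl7. The other endothelial cells (ECs), against which the LECs were set, were 1268 non-member barcodes with at least 3 UMIs of these 3 endothelial genes from at least 2 of them and more than 2 times the sum for other cell types. The 13 genes of the rule are therefore given below as a description, with no test.

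The series compared the proximal PA of old and young mice by droplet single-cell RNA sequencing, with 6 libraries analysed here, each labelled with an age. The old group held libraries of 20, 24, 27 and 28 months and the young group held 2 libraries of 3 months. Mice were wild type C57BL/6J with no treatment, and the vessel was digested with collagenase and elastase, so that LECs of the outer wall and of tissue next to it could both enter the suspension. Sex was labelled for the 27-month male, the 28-month female and 1 of the 3-month libraries (female). The 20-month library carries no sex in its label and is listed as male in the study's text. Its LECs held the female transcript Xist at 744 UMIs per 1000000 UMIs (CPM), in 16 of 18 cells, against 910 CPM in 62 of 68 LECs of the 28-month female and 0 in the 27-month male, which goes against that listing.

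LECs form the inner layer of lymphatic capillaries and collecting vessels, which take up interstitial fluid, lipid and immune cells and return them to the blood. The transcription factor PROX1 sets and holds their identity, and the receptor VEGFR3, encoded by Flt4, binds VEGF-C to drive their growth. In large arteries, lymphatic vessels run in the adventitia. Initial capillaries are known for LYVE1 and the chemokine CCL21, which guides dendritic cells, while collecting vessels lose both.

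The libraries differed in depth and in the share of barcodes they had in common. Total UMIs were 9487564 in the 3-month, 6355125 in the 3-month female, 7042921 in the 20-month, 12851645 in the 24-month, 36218542 in the 27-month male and 50436562 in the 28-month female library. In the same order, 2722, 935, 1233, 2868, 3797 and 4067 barcodes were kept. The 3-month, 3-month female and 24-month libraries shared barcodes with one another. The 3-month library had 156 kept barcodes in common with the 3-month female library and 131 with the 24-month library. The 3-month female and 24-month libraries had 215 in common, whereas all other pairs shared at most 4. No barcode called an LEC was shared between libraries. These 3 libraries were also shallow, with medians of 751.5, 722 and 709 UMIs per EC outside the LECs (3-month, 3-month female and 24-month), against 2214, 3589 and 3710 in the 20-month, 27-month male and 28-month female libraries.

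LECs were found in old libraries only, which held 18 (20-month), 1 (24-month), 25 (27-month male) and 68 (28-month female) of them. The 3-month and 3-month female libraries held 0 LECs. As a share of all ECs, LECs were 4.51% of 399 cells in the 20-month library (Clopper-Pearson 95% interval 2.70 to 7.04), 2.50% of 40 in the 24-month library (0.0633 to 13.2), 10.5% of 238 in the 27-month male (6.91 to 15.1) and 10.4% of 657 in the 28-month female (8.13 to 12.9). The young libraries held 32 and 14 ECs, so that 0 of 32 allows a share of up to 9.38% and 0 of 14 a share of up to 21.4% when 3 counts are taken as the floor. The Clopper-Pearson upper ends are higher, at 10.9% and 23.2%. The 20-month and 24-month shares lay under all of these limits, while the 27-month male and 28-month female shares lay above the 9.38% of the 3-count floor and under the 10.9% of the interval. The old mean was 6.97% ± 4.08 (SD, n = 4) against 0 in both young libraries, and the exact two-sided permutation test gave p = 0.133, the smallest value that 4 against 2 libraries can give. The test could therefore not reach 0.05 whatever the values or the depth. Counting as LECs only members with Mmrn1, Reln or Ccl21a, a choice made after seeing the data, lowered the 20-month share to 2.06% of 389 and the 24-month share to 0 of 39, with an old mean of 5.52% and an exact permutation p of 0.4.

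Counted against all kept barcodes, LECs were 1.46% in the 20-month, 0.0349% in the 24-month, 0.658% in the 27-month male and 1.67% in the 28-month female library. With 0 LECs, the 3-month library allows up to 0.110% and the 3-month female up to 0.321%. The 20-month, 27-month male and 28-month female shares lay above both of these limits, and so did the lower ends of their Clopper-Pearson 95% intervals, 0.867, 0.427 and 1.30%. The 24-month share lay below both. The mean over the old libraries was 0.956% ± 0.754 (SD, n = 4), with the same exact permutation p of 0.133. With members holding Mmrn1, Reln or Ccl21a only, the old mean was 0.708% (exact permutation p = 0.4) and the 20-month share 0.649%. The lower end of that share, 0.281%, lay under the limit of the 3-month female library. When barcodes had to hold at least 1000 UMIs and 500 genes, this limit was 0.920%, above the 27-month male share of 0.693%. The intervals and limits cover counting error only, and fewer LECs in the tissue and fewer LECs released by the digest cannot be told apart. Within the 3 libraries that shared barcodes, the 24-month library exceeded the young by 2.50 percentage points of ECs and 0.0349 points of kept barcodes. When every barcode was thinned to 500 UMIs before the rule was applied, 1 (20-month), 1 (24-month), 2 (27-month male) and 9 (28-month female) LECs were left, and the old mean was 4.74% of ECs and 0.0975% of kept barcodes, the latter under the limit of the 3-month library. The part that depth and the shared barcodes had in the age difference was not tested.

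**Figure D1:**
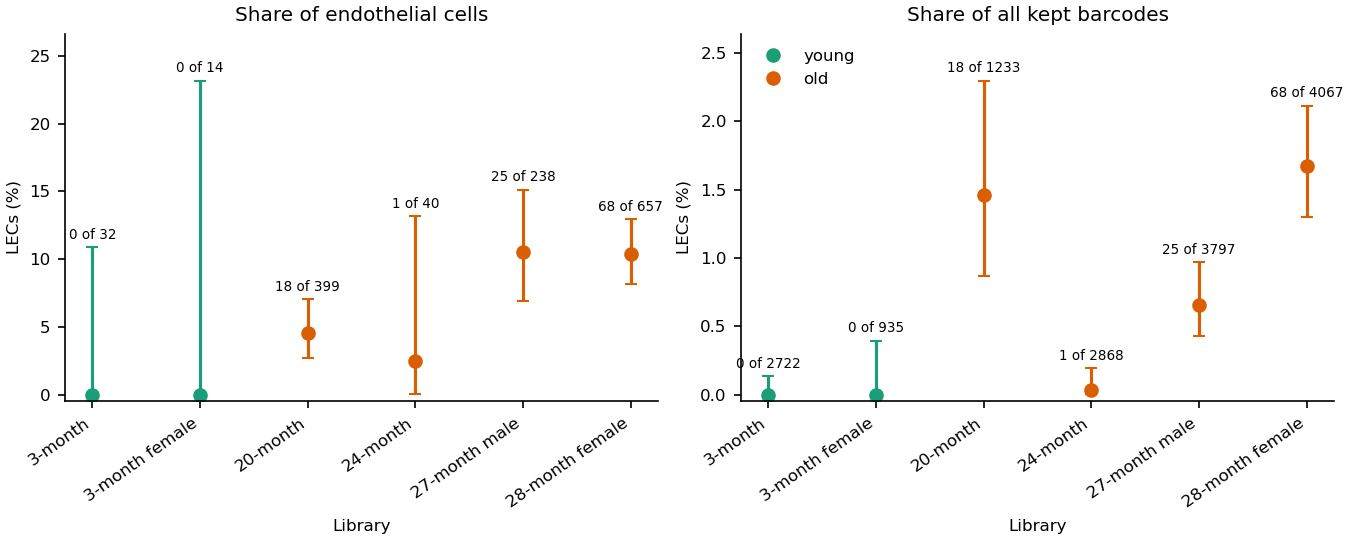
LECs as a percentage of all ECs (left) and of all kept barcodes (right) in each of the 6 libraries, with bars for Clopper-Pearson 95% intervals and the counts written above. Among ECs the intervals of the young libraries (green) reach 10.9 and 23.2%, above the old shares (orange) of 2.50 to 10.5%, whereas among kept barcodes they end at 0.135 and 0.394%, below 3 of the 4 old shares.

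The genes that chose the cells were not spread evenly over them. Throughout, 3 values for a gene are in the order 20-month, 27-month male and 28-month female, the libraries with at least 10 LECs, and CPM is the gene's share of all UMIs summed over the cells of a class in 1 library. Prox1 (ENSMUSG00000010175.14) stood at 1358, 1148 and 820 CPM in LECs and was seen in 17 of 18, 24 of 25 and 59 of 68 of them. In other ECs it stood at 137, 3.05 and 31.3 CPM and was seen in 32 of 381, 2 of 213 and 21 of 589 cells, at median depths near those of the LECs or below them. Prox1 was thus detected in nearly every LEC, and the other ECs of the 20-month library held more of it than those of the other libraries. Flt4 (ENSMUSG00000020357.4) stood at 307, 652 and 634 CPM, and Mmrn1 (ENSMUSG00000054641.11), which encodes a multimeric secreted protein that platelets also store, at 519, 1830 and 2039 CPM. Reln (ENSMUSG00000042453.15), a secreted glycoprotein that LECs release towards the muscle cells of collecting vessels, stood at 47.2, 431 and 564 CPM. Both Mmrn1 and Reln were lowest in the 20-month library, where Mmrn1 was seen in 8 of 18 LECs and Reln in 3. Ccl21a stood at 354, 2284 and 616 CPM but came from 2, 6 and 10 cells. Its near-identical copies make its count uncertain.

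At the threshold, 5 LECs had the minimum of 3 UMIs of the 5 lymphatic genes, and 8 barcodes were left out because they had 2. More barcodes met every other condition but held only 1 of the 5 genes, 18 in the 20-month, 2 in the 24-month, 3 in the 27-month male and 12 in the 28-month female library. The sum for other cell types alone left out 4, 2 and 4 in the 20-month, 27-month male and 28-month female libraries, and the lack of an endothelial UMI 1 each in the 3-month female, 20-month, 24-month and 28-month female libraries. Among the other ECs, 12, 3 and 15 cells of the 20-month, 27-month male and 28-month female libraries held 3 or more UMIs of the 5 genes. The median LEC held 16.5 UMIs of these genes, the highest held 289, and 102 of 112 held 5 or more. The single LEC of the 24-month library was a weak example, with 571 UMIs in all, of which Prox1 gave 6, Flt4 1 and Pecam1 2, and none of the 12 further lymphatic markers. It entered no test. Scrublet, which simulates doublets, marked 1 LEC, in the 27-month male library.

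Lymphatic genes that the rule did not use were tested by comparing the summed UMIs of LECs with those of the other ECs of the same library. edgeR's quasi-likelihood test with a term for the library was fitted over the 20-month, 27-month male and 28-month female libraries, with Benjamini-Hochberg adjustment. Of 9155 genes tested, 1196 passed an adjusted p of 0.05 (13.1% of those tested), 549 of them higher in LECs (6.0%) and 647 lower (7.07%). The calls of each gene list below are to be read beside these shares. The median log2 difference over all tested genes was -0.06. All 3 LEC values lay above all 3 EC values in 816 of the tested genes (8.91%) and below them in 674 (7.36%). The LECs were called from the same transcripts that were then compared, and a gene could enter the test through the LECs or the other ECs alone, so the calls describe how these cells differ and the 13 genes of the rule stay out. Each library was treated as 1 mouse, and the 3 pairs measure the spread between these libraries.

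Most LECs carried further lymphatic genes, while 17 cells described below held few of them. Of 12 lymphatic markers outside the rule, all tested, 9 were higher in LECs and 0 lower, with a median log2 difference of 3.90, a count that describes these cells, since markers nearly absent from the other ECs such as Dtx1 and Pdpn entered the test through the LECs. Their summed level was 3801, 8993 and 7403 CPM in LECs against 1183, 1205 and 1204 CPM in other ECs of the same libraries. Maf (ENSMUSG00000055435.7), a transcription factor of lymphatic vessels, stood at 531, 897 and 596 CPM in LECs and at 11.5, 49.7 and 9.78 CPM in other ECs (log2 difference 5.0 ± 0.31 SE, adjusted p = 1.16e-10 by edgeR). Every LEC value lay above every EC value. Fgl2, which encodes a secreted fibrinogen-like protein, stood at 224, 813 and 856 CPM against 18.5, 31.5 and 34.8 CPM (4.30 ± 0.27, adjusted p = 1.76e-12 by edgeR). Nrp2, the co-receptor of VEGFR3, stood at 70.8, 496 and 382 CPM against 3.52, 26.4 and 46.6 CPM (3.50 ± 0.29, adjusted p = 2.82e-10 by edgeR). Neither of these genes overlapped between the classes. Pdpn, the mucin-like glycoprotein podoplanin, stood at 23.6, 197 and 96.0 CPM against 1.76, 3.05 and 2.74 CPM (5.12 ± 0.46, adjusted p = 1.13e-09 by edgeR). It was seen in 35 of the 112 LECs. Cp, the copper-carrying ferroxidase ceruloplasmin, stood at 449, 1907 and 1573 CPM against 174, 338 and 249 CPM, a difference of 2.12 on the log2 scale.

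Nts, Lyve1 and Sox18 were the 3 markers that did not pass. Nts, the precursor of the peptide neurotensin, stood at 1275, 1094 and 1212 CPM in LECs against 72.2, 7.11 and 11.3 CPM in other ECs, with a log2 difference of 5.65 ± 1.00 and an adjusted p of 0.112 by edgeR. Its LEC values lay above its EC values in all 3 libraries. In the 28-month female library, 1 LEC gave 274 of the 606 Nts UMIs. Lyve1, the hyaluronan receptor of lymphatic capillaries and of some macrophages, stood at 142, 813 and 328 CPM against 232, 234 and 247 CPM (0.56 ± 0.51, adjusted p = 0.699 by edgeR). Lyve1 was above the other ECs in the 27-month male and 28-month female libraries and below them in the 20-month library, and only 1, 9 and 17 LECs held it. Of the 136 Lyve1 UMIs in LECs of the 27-month male library, 36 came from the barcode marked as a doublet. With members holding Mmrn1, Reln or Ccl21a only, Lyve1 passed in the 2 libraries left (1.14, adjusted p = 0.0258 by edgeR). Sox18, a factor that turns on Prox1 in the embryo and is also used by blood vessels, stood at 177, 149 and 168 CPM against 336, 132 and 197 CPM (-0.42 on the log2 scale, adjusted p = 0.375 by edgeR).

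**Figure D2:**
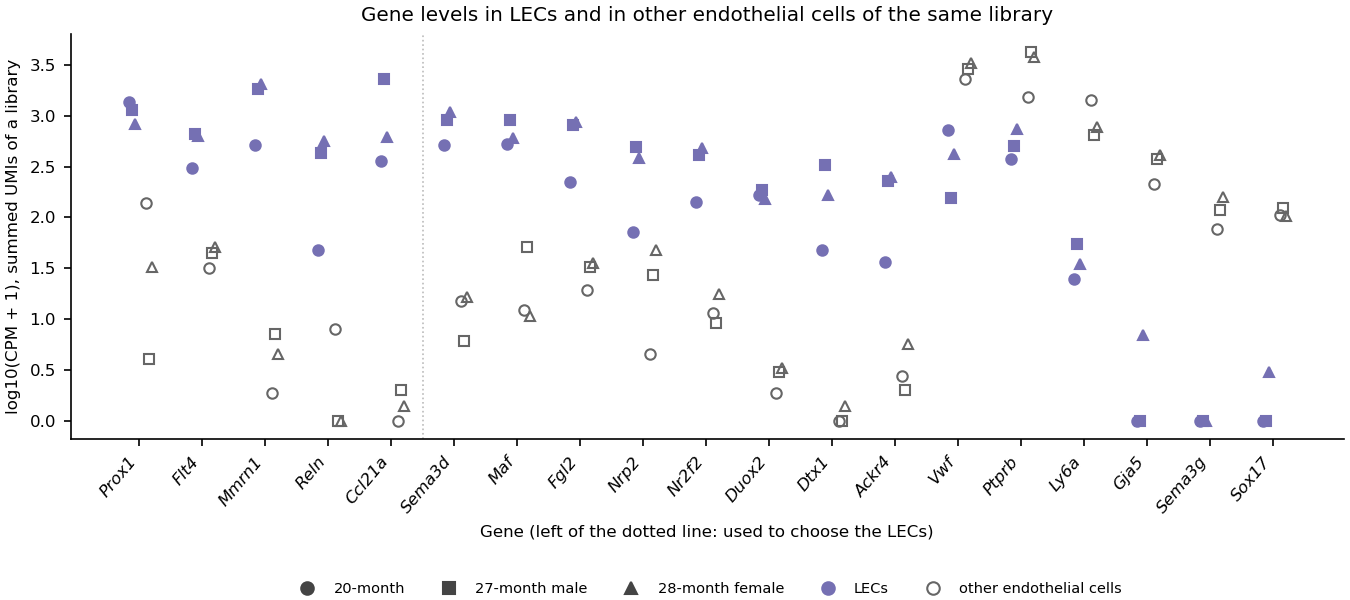
Level of 19 genes in LECs (filled) and in other ECs (open) of the 20-month, 27-month male and 28-month female libraries, as log10(CPM + 1) of the summed UMIs. The 5 genes left of the dotted line chose the cells, while to the right the LEC points lie above the EC points from Sema3d to Ackr4 and below them from Vwf to Sox17.

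Among transcription factors, 5 of 13 tested were higher in LECs and 1 was lower, against 6.0% and 7.07% of all tested genes. Nr2f2, the nuclear receptor COUP-TFII that works with PROX1, stood at 142, 407 and 484 CPM in LECs against 10.6, 8.12 and 16.8 CPM in other ECs (4.70 ± 0.31, adjusted p = 1.03e-11 by edgeR). Tbx1, a T-box factor needed for lymphatic growth, stood at 59.0, 209 and 214 CPM against 9.69, 15.2 and 19.2 CPM, 3.33 higher on the log2 scale. Nfatc1, a factor of valve formation, stood at 295, 293 and 310 CPM against 152, 106 and 76.3 CPM (1.42 on the log2 scale). For these 3 genes the classes did not overlap. Foxp2, a forkhead factor, stood at 272, 1459 and 1539 CPM against 49.3, 19.3 and 73.2 CPM but did not pass (4.28 ± 1.05, adjusted p = 0.203 by edgeR). It was seen in 11 of 18, 22 of 25 and 65 of 68 LECs. After thinning to 500 UMIs per cell it was seen in 1, 14 and 38 LECs and in 5, 1 and 13 other ECs. By edgeR, Foxp2 had an adjusted p of 0.00216 without the 20-month library, the same without the 27-month male, and 0.609 without the 28-month female, and with members holding Mmrn1, Reln or Ccl21a only it passed, at 8.97e-05. Klf2, a factor induced by flow, was lower in LECs by edgeR, with a log2 difference of -0.91. DESeq2 called 5 of these transcription factors higher and 0 lower, so Klf2 did not pass there.

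Receptors of the VEGF family separated into both directions. Of 17 genes tested for VEGF-C, angiopoietin and adrenomedullin signalling, 5 were higher and 5 lower, against 6.0% and 7.07% of all tested genes. Kdr, the receptor VEGFR2 that can pair with VEGFR3, stood at 130, 753 and 562 CPM in LECs against 22.9, 137 and 252 CPM in other ECs (1.78 ± 0.27, adjusted p = 2.13e-05 by edgeR). Its lowest LEC value lay below 2 of the EC values, though LECs were higher within each library. Nrp1, the co-receptor of VEGFR2, stood at 82.6, 108 and 108 CPM against 193, 641 and 733 CPM (-2.55 ± 0.27, adjusted p = 3.51e-08 by edgeR). The neuropilins were thus opposite, Nrp2 higher and Nrp1 lower in LECs. Ptprb, the phosphatase VE-PTP that restrains the receptor TIE2, stood at 378, 502 and 742 CPM against 1531, 4200 and 3756 CPM (-2.62 ± 0.21, adjusted p = 9.77e-11 by edgeR). The ligand Vegfc stood at 23.6, 5.98 and 36.0 CPM against 32.6, 107 and 137 CPM, a log2 difference of -2.21. Adm, the peptide adrenomedullin, was higher by 2.63 and Ephb4, a receptor of vein and lymphatic, by 1.25. Flt1, the decoy receptor VEGFR1, stood at 449, 167 and 228 CPM against 387, 628 and 937 CPM and did not pass (adjusted p = 0.0779 by edgeR).

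By edgeR, genes of collecting vessels, valves and capillaries moved in both directions. Over all tested genes edgeR called 6.0% higher and 7.07% lower. Of 10 collecting vessel and valve genes tested, 3 were higher and 2 lower by edgeR, against 2 higher and 1 lower by DESeq2. Fn1, among the 3 higher by edgeR, did not pass without the 20-month library (adjusted p = 0.262 by edgeR) or the 27-month male (0.302). It passed without the 28-month female (0.00365), and its log2 difference was -0.0437 with members holding Mmrn1, Reln or Ccl21a only. Gja1 (ENSMUSG00000050953.11), the gap junction protein connexin 43 of lymphatic valves, stood at 189, 359 and 346 CPM in LECs against 9.69, 25.4 and 30.1 CPM in other ECs (3.64 ± 0.27, adjusted p = 2.22e-11 by edgeR). Gja4, connexin 37, stood at 70.8, 23.9 and 94.0 CPM against 227, 204 and 230 CPM, a log2 difference of -1.86. The gap junction genes therefore differed in direction, and Gja5, connexin 40 of arterial endothelium, was at 0, 0 and 6.0 CPM against 211, 374 and 409 CPM. With 3 UMIs of Gja5 in all LECs of the 3 libraries, its level over their summed UMIs was 88.6-fold lower, with a counting interval from 30.3 to 430. Celsr1, a planar polarity protein needed for valve formation, was higher by 1.58. Of 5 capillary and lymph node sinus genes tested, 3 were higher and 1 lower by edgeR, against 2 higher and 0 lower by DESeq2. The lower gene, Bst1, rested on 4 UMIs in LECs. Ackr4 (ENSMUSG00000079355.6), a decoy receptor that clears CCL21, stood at 35.4, 227 and 248 CPM against 1.76, 1.02 and 4.70 CPM (5.79 ± 0.41, adjusted p = 1.32e-11 by edgeR).

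Among 13 tested genes of immune cell traffic, 5 were higher and 4 lower in LECs, against 6.0% and 7.07% of all tested genes. Spns2, the transporter that exports sphingosine 1-phosphate into lymph, stood at 153, 233 and 218 CPM in LECs against 15, 9.14 and 21.9 CPM in other ECs (3.54 ± 0.31, adjusted p = 1.13e-09 by edgeR). The classes did not overlap. Il33, a nuclear cytokine released by damaged cells, stood at 35.4, 221 and 206 CPM against 26.4, 16.2 and 11.3 CPM, with an adjusted p of 0.0432 by edgeR. Ccl2, a monocyte chemokine, stood at 685, 95.7 and 6.0 CPM against 65.2, 4.06 and 1.57 CPM (3.25 ± 0.37, adjusted p = 1.22e-07 by edgeR). Ccl2 was far higher in the 20-month library than in the others in both classes. Ackr3, a scavenger of CXCL12 and adrenomedullin, was higher by 1.11 on the log2 scale. Lower in LECs were Cx3cl1 (fractalkine) with a log2 difference of -2.19, Cd200, an inhibitory ligand for myeloid cells, with -1.66, and Cxcl12 with -1.22. The adhesion molecule Vcam1 stood at 1251, 12 and 68.0 CPM against 2130, 574 and 466 CPM and did not pass (adjusted p = 0.371 by edgeR).

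Guidance molecules held some of the largest differences. Of 16 tested, 6 were higher and 3 lower in LECs, against 6.0% and 7.07% of all tested genes. Their median log2 difference was 0.46. Sema3d (ENSMUSG00000040254.12), a secreted semaphorin that lymphatic endothelium is known to make, stood at 519, 903 and 1074 CPM in LECs against 14.1, 5.08 and 15.7 CPM in other ECs (5.99 ± 0.33, adjusted p = 3.11e-11 by edgeR). Sema3a, a semaphorin that shapes lymphatic valves, stood at 189, 329 and 518 CPM against 12.3, 1.02 and 8.61 CPM (5.47 ± 0.55, adjusted p = 0.000541 by edgeR). Both were clear of the other ECs in every library. Sema3g, a semaphorin of arterial endothelium, went the other way and was at 0 in all 3 LEC profiles, against 76.6, 117 and 157 CPM. Over the summed UMIs Sema3g was at least 32.4-fold lower in LECs, taking 3 counts over the 3 libraries as the floor. Sema6a was higher by 1.18, Robo4, a roundabout receptor that steadies vessels, by 1.10, and Plxnd1, a semaphorin receptor, was lower, with a log2 difference of -1.80.

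Sema3d and Sema3a were next to each other among the tested genes placed on chromosome 5, and both were called higher. The 250 bases before the start of each are shown because these semaphorins were among the largest differences in LECs and carry a short motif shared by SOX factors, of which Sox18 acts in lymphatic development. Sequences are from RefSeq on build GRCm38.p6, read 5′ to 3′ on the gene's strand, with capitals at ACAAAG or its reverse complement CTTTGT. Sema3d is at chr5:12382916-12383165 on the plus strand and Sema3a at chr5:13396534-13396783 on the plus strand.
Sema3d: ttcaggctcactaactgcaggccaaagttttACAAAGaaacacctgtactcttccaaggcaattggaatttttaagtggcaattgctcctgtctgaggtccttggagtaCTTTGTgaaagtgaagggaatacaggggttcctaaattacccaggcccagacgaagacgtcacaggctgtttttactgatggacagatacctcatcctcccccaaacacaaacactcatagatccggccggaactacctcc
Sema3a: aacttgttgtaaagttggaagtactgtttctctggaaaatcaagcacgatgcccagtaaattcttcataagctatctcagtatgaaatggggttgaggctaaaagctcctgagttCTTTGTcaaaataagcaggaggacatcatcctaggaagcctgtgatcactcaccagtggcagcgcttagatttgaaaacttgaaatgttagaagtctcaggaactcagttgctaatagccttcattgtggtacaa
Sema3d held the motif 2 times and Sema3a 1 time. It was in 12.1% of the 414 promoters matched to genes higher in LECs, in 12.6% of the 477 matched to genes lower in LECs, in 11.2% of the 7236 matched to tested genes and in 16.5% of all 27025 promoters of the table, either strand counted. The motif was therefore about as frequent beside genes of both directions, and a match is a description of the sequence only.

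The 12 largest rises were led by Dtx1 (ENSMUSG00000029603.16), a ubiquitin ligase of the Notch pathway, at 47.2, 329 and 166 CPM in LECs against 0, 0 and 0.391 CPM in other ECs. With 1 UMI in all other ECs the ratio of summed levels was 883, with a counting interval from 156 to 35111. Dtx1 was seen in 52 of the 112 LECs. Hgf, the growth factor that acts on the receptor MET, stood at 11.8, 108 and 68.0 CPM against 0, 0 and 0.783 CPM, and Htr2b, a serotonin receptor, at 11.8, 120 and 152 CPM against 0.881, 0 and 1.17 CPM. Glp1r, the receptor of the gut hormone GLP-1, stood at 11.8, 23.9 and 32.0 CPM and was at 0 in the other ECs, at least 43.5-fold higher over the summed UMIs. These receptors and ligands were scarce in LECs and nearly absent from the other ECs. Adamtsl1, a secreted matrix protein, stood at 23.6, 389 and 726 CPM against 4.4, 4.06 and 7.83 CPM (5.99 ± 0.50, adjusted p = 9.47e-06 by edgeR). A830019P07Rik, Klrb1f, Astl and Sh3gl3 were also among the 12, each under 110 CPM in every LEC profile.

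Duox2 and Duoxa2 were both in this group. Duox2 (ENSMUSG00000068452.9), an oxidase that makes hydrogen peroxide, stood at 165, 185 and 152 CPM in LECs against 0.881, 2.03 and 2.35 CPM in other ECs (6.19 ± 0.41, adjusted p = 3.15e-12 by edgeR). Duoxa2, which encodes the factor that carries DUOX2 to the cell surface, stood at 23.6, 29.9 and 30.0 CPM and was at 0 in the other ECs, at least 45.6-fold higher over the summed UMIs. Duoxa2 rested on 2, 5 and 15 UMIs in LECs. The genes stand head to head on chromosome 2, with starts 673 bases apart on opposite strands, and the bases before each start are shown because an enzyme and its partner, both called, start within 1 short stretch. Duox2 is at chr2:122298228-122298477 on the minus strand and Duoxa2 at chr2:122298650-122298899 on the plus strand, again from RefSeq on GRCm38.p6, with capitals at CTTTGT and at TGACCT, the reverse complement of the nuclear receptor letters AGGTCA.
Duox2: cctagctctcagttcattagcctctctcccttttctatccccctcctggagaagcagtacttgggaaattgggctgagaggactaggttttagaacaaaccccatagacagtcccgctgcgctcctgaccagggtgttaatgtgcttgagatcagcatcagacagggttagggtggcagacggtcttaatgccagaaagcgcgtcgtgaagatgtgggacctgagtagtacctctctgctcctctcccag
Duoxa2: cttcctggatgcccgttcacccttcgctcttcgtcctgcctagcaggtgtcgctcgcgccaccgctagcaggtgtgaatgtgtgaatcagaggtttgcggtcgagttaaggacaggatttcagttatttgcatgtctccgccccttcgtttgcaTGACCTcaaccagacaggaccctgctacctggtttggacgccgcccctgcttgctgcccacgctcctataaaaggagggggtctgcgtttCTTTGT
AGGTCA on either strand was in 10.1% of promoters of genes higher in LECs, 7.55% of those of genes lower in LECs, 9.55% of those of tested genes and 13.8% of all promoters.

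**Figure D3:**
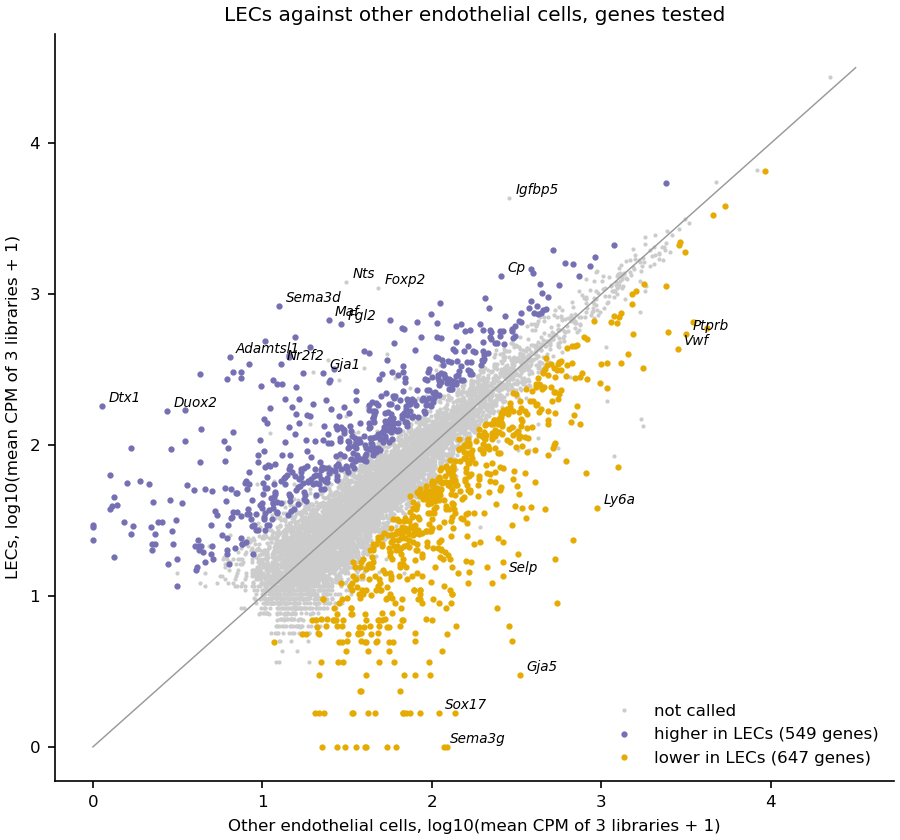
Mean level of the 9155 tested genes in LECs (vertical) against other ECs (horizontal) over the 20-month, 27-month male and 28-month female libraries, both as log10(mean CPM + 1), with 549 genes higher in LECs in purple and 647 lower in yellow. Sema3d, Maf, Dtx1 and Duox2 lie far above the diagonal and Gja5, Sox17 and Sema3g far below it, while Nts, Foxp2 and Igfbp5 lie above it without being called.

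Genes of blood vascular endothelium were mostly lower in LECs. Of 27 tested, 15 were lower and 3 higher, with a median log2 difference of -1.44. This count too describes the cells, since genes nearly absent from LECs, such as Sox17 and Gja5, entered the test through the other ECs. Vwf, the platelet-binding von Willebrand factor, stood at 720, 155 and 422 CPM in LECs against 2297, 2892 and 3301 CPM in other ECs (-3.03 ± 0.47, adjusted p = 0.0161 by edgeR). Vwf did not overlap between the classes, but without the 28-month female library its adjusted p was 0.108 by edgeR, and it also failed without TMM scaling or with marked doublets left out. Sox17, a factor of arterial identity, was at 0, 0 and 2.0 CPM against 104, 122 and 101 CPM, which rests on 1 UMI in LECs and gives a ratio of 79.9 with a lower counting bound of 14.3. Ly6a, the surface protein Sca-1, stood at 23.6, 53.8 and 34.0 CPM against 1425, 640 and 769 CPM (-4.56 ± 0.31, adjusted p = 2.58e-11 by edgeR). Selp, the leukocyte adhesion protein P-selectin, stood at 23.6, 5.98 and 8.0 CPM against 234, 339 and 212 CPM (-4.76 ± 0.39, adjusted p = 1.91e-10 by edgeR). Notch4, Cd34 and the vasoconstrictor gene Edn1 were lower, with log2 differences of -2.59, -2.38 and -1.98. Plvap, the diaphragm protein of fenestrated vessels, was higher by 1.76, from 133, 65.0 and 124 CPM in other ECs to 283, 425 and 426 CPM in LECs, and Emcn, the sialomucin endomucin, by 0.70.

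Besides Sema3g, 9 of the 12 largest falls were at 0 in all 3 LEC profiles. Adh7, a retinol dehydrogenase, stood at 57.3, 180 and 129 CPM in other ECs and was at least 30.6-fold lower in LECs. Col8a1, a short-chain collagen of the vessel wall, was at least 16.5-fold lower, the peptidase Klk10 at least 11.3-fold, Rhpn2 at least 9.28-fold, the keratin Krt18 at least 8.47-fold, and the imprinted RNA Meg3 at least 7.99-fold. Kcnj2, an inward rectifier potassium channel of blood vessel endothelium, was at least 7.40-fold lower, 2310002F09Rik at least 6.38-fold and Icosl, a ligand of T cell co-stimulation, at least 5.09-fold. Of these, Col8a1 did not pass by DESeq2. The smaller of these bounds are set by the depth of the LECs, in which 3 counts come to 3.99 CPM over the 3 libraries.

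Junction and basement membrane genes changed in both directions, with 4 of 17 tested higher and 6 lower. Over all tested genes 6.0% were higher and 7.07% lower. The laminin chain Lamb1 stood at 47.2, 215 and 184 CPM in LECs against 9.69, 4.06 and 14.1 CPM in other ECs (3.81 ± 0.41, adjusted p = 1.95e-06 by edgeR), and Lama5, a laminin chain of arterial basement membrane, at 11.8, 41.9 and 24.0 CPM against 80.2, 106 and 101 CPM (-1.98 ± 0.36, adjusted p = 0.000178 by edgeR). Laminin chains thus differed in direction between the classes. The junction proteins Jam2 and Esam were lower, with log2 differences of -3.27 and -2.56. Ocln, the tight junction protein occludin, stood at 11.8, 0 and 4.0 CPM against 54.6, 40.6 and 63.8 CPM. Of 16 lipid and fluid handling genes, 0 were higher and 6 lower by edgeR, against 1 higher and 7 lower at an unadjusted p under 0.05, and 0 higher and 1 lower by DESeq2. Aqp1, the water channel of blood capillaries, stood at 295, 209 and 396 CPM against 445, 750 and 1108 CPM (-1.48 ± 0.23, adjusted p = 1.63e-05 by edgeR), and the HDL receptor gene Scarb1 was lower in the fit, with a log2 difference of -1.73 that rested on 2, 4 and 6 LEC UMIs and had the other sign in the 20-month library. Cavin2, a coat protein of caveolae, stood at 696, 1782 and 1747 CPM against 556, 1242 and 1000 CPM and did not pass (adjusted p = 0.18 by edgeR).

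**Figure D4:**
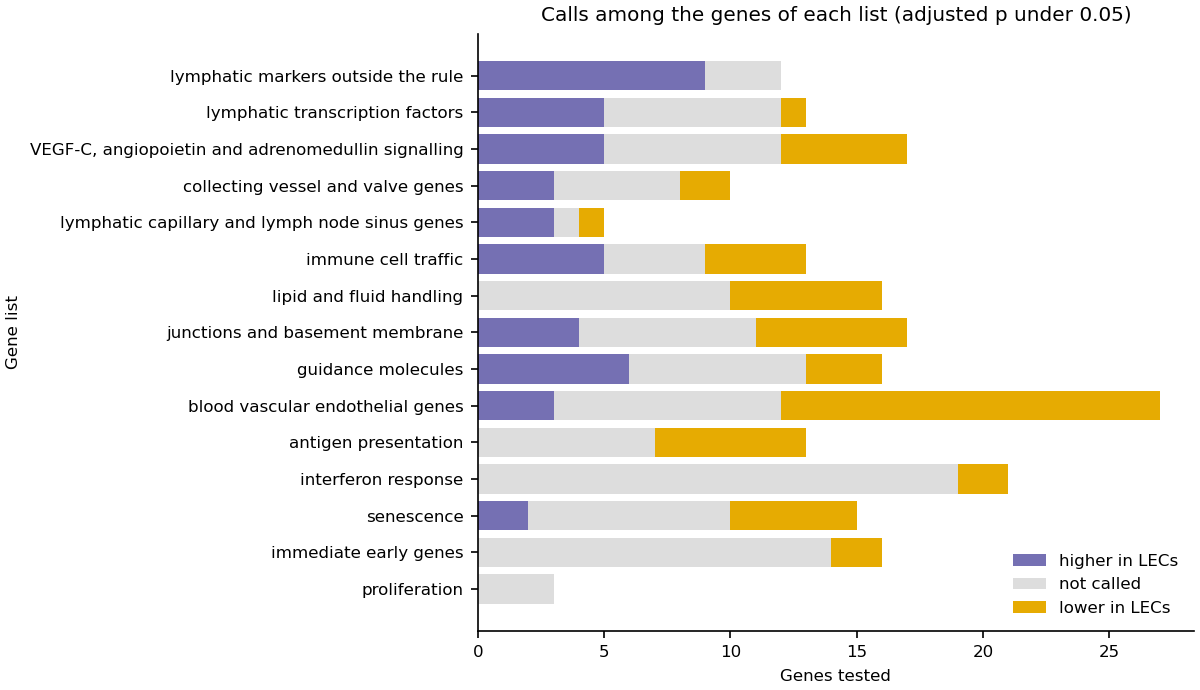
Number of tested genes called higher in LECs (purple), called lower (yellow) or not called (grey) in each of 15 gene lists, by edgeR at an adjusted p of 0.05. Lymphatic markers outside the rule stand out with 9 of 12 higher and 0 lower, blood vascular genes with 15 of 27 lower, and antigen presentation with 6 of 13 lower and 0 higher.

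Several genes of antigen presentation were lower in LECs than in the other ECs. Of 13 tested, 6 were lower and 0 higher by edgeR (10 and 0 at an unadjusted p under 0.05, 4 and 0 by DESeq2), and all 13 had a log2 difference below 0, with a median of -0.79, where 4067 of all 9155 tested genes were above 0 and the median was -0.06. The class II gene H2-Aa stood at 47.2, 47.8 and 6.0 CPM in LECs against 145, 226 and 105 CPM in other ECs (-2.80 ± 0.37, adjusted p = 1.64e-06 by edgeR). H2-Eb1 and H2-Ab1 were lower, with log2 differences of -2.68 and -2.36. The class I genes H2-K1 and H2-D1 differed less, by -0.79 and -0.71, and neither passed by DESeq2. Cd74, the invariant chain of class II, stood at 11.8, 233 and 30.0 CPM against 379, 494 and 247 CPM and did not pass (adjusted p = 0.0704 by edgeR). The macrophage marker list, whose cells also carry class II, summed to 23.6, 1268 and 96.0 CPM in LECs and 79.3, 676 and 352 CPM in other ECs, and its part in these differences was not tested. By edgeR, 2 of 21 interferon response genes and 2 of 16 immediate early genes were lower and 0 of either list higher, near the 7.07% of all tested genes that were lower, while at an unadjusted p under 0.05 these were 5 and 8 lower and 0 higher. DESeq2 called 0 genes of both lists. Fosb, an immediate early gene, stood at 1204, 634 and 98.0 CPM against 2653, 920 and 131 CPM and so varied more among libraries than between the classes.

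Senescence genes showed 2 of 15 tested higher and 5 lower by edgeR, against 3 higher and 3 lower by DESeq2. Over all tested genes edgeR called 6.0% higher and 7.07% lower, and DESeq2 called 7.64% in either direction. Igfbp6, a binding protein of insulin-like growth factors, stood at 23.6, 347 and 48.0 CPM in LECs against 5.29, 18.3 and 5.48 CPM in other ECs (3.50 ± 0.38, adjusted p = 5.91e-08 by edgeR). Igfbp4, of the same family, stood at 413, 359 and 268 CPM against 923, 1335 and 989 CPM (-1.81 ± 0.21, adjusted p = 1.91e-07 by edgeR). These binding proteins thus went in opposite directions. Igfbp5 stood at 909, 7851 and 4151 CPM against 350, 337 and 169 CPM and did not pass (3.54 ± 1.19, adjusted p = 0.328 by edgeR). In the 27-month male library 1 LEC gave 761 of the 1313 Igfbp5 UMIs. By edgeR, Igfbp5 had an adjusted p of 2.21e-07 without the 20-month library, 0.699 without the 27-month male and 0.746 without the 28-month female, and with members holding Mmrn1, Reln or Ccl21a only it passed, at 1.43e-06. Only 3 of the 8 proliferation genes listed entered the test, and 0 passed by edgeR, 0 by DESeq2 and 0 at an unadjusted p under 0.05. With 13.1% of all tested genes called by edgeR, 3 genes are too few for a count of 0 to be read as a result. Old and young LECs could not be compared in any gene, since the young libraries held 0 of them.

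Markers of other cell types were present in LECs, some below and some above the level of the other ECs. Smooth muscle markers summed to 236, 771 and 500 CPM in LECs against 529, 3665 and 1678 CPM in other ECs. Eln alone stood at 82.6, 496 and 384 CPM in LECs against 419, 3321 and 1523 CPM. It thus gave most of the smooth muscle sum in other ECs. Fibroblast markers summed to 1747, 1100 and 1094 CPM in LECs against 1759, 2000 and 1921 CPM. In LECs they were led by Dcn in the 20-month and 28-month female libraries and Gsn in the 27-month male. Airway markers summed to 47.2, 35.9 and 12 CPM and lymphocyte markers to 23.6, 29.9 and 6.0 CPM in LECs, the latter against 11.5, 10.2 and 64.6 CPM in other ECs. Of the fibroblast and smooth muscle markers tested, 5 of 7 and 2 of 6 were lower in LECs and 0 higher by edgeR. Mesothelial markers were higher, at 331, 401 and 508 CPM against 43.2, 34.5 and 57.9 CPM, nearly all from Gpm6a. Reticular and thymic stroma markers summed to 59.0, 233 and 160 CPM against 74.9, 51.8 and 77.1 CPM, led in the 27-month male and 28-month female LECs by Pdpn, which is also a lymphatic marker. Macrophage RNA stood out in the 27-month male library, where 12 of 12 macrophage markers had UMIs in LECs, led by Mrc1 at 305 CPM. Of its 51 Mrc1 UMIs, 43 came from the LEC that Scrublet marked. Without marked barcodes, 1205 genes were called.

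LECs differed among themselves and between libraries. Of the 112, 17 held no UMI of Mmrn1, Reln or Ccl21a, and the rule then required both Prox1 and Flt4 of them. They were 10 of 18 LECs in the 20-month library, the single LEC of the 24-month library, 0 of 25 in the 27-month male and 6 of 68 in the 28-month female. Sema3d was seen in 1 of these 17 cells against 89 of the other 95, Maf in 1 against 80, and Cp in 8 against 92. Dtx1, Pdpn, Ackr4, Il33 and Lyve1 were at 0 in the 17. Vwf was seen in 13 of the 17, at 1361 CPM, against 32 of the other 95, at 200 CPM. Foxp2 was seen in 12 of the 17. Median depth was 4367 UMIs in the 17 and 4781 in the 95. Apart from the genes that chose them, these cells held little of most further lymphatic markers and more Vwf, and the rule took them as LECs on Prox1 and Flt4 alone. Taking members with Mmrn1, Reln or Ccl21a alone left 2 libraries with at least 10 LECs and 898 genes called (435 higher, 463 lower), a choice made after seeing the data.

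Among the remaining 95 LECs, most cells with Ccl21a also held Lyve1, while 12 cells held Lyve1 without Ccl21a. Ccl21a was seen in 18 LECs, 15 of which also held Lyve1, and Lyve1 in 27. The 18 cells with Ccl21a held Reln at 3089 CPM, against 193 CPM in the other 77 of the 95. These levels and those that follow were pooled over libraries. Of 358 Reln UMIs in LECs, single Ccl21a cells of the 28-month female library gave 59, 57 and 45. They held Maf at 1795 CPM against 635, Flt4 at 1380 CPM against 580, Mmrn1 at 3577 CPM against 1984, and Pdpn at 354 CPM against 99.5. They held Foxp2 at 720 CPM against 1676 and Vwf at 12.2 CPM against 228. Prox1 was nearly equal, at 952 and 949 CPM. The Ccl21a cells were somewhat shallower, with a median of 3779 UMIs against 4895. The 27 cells with Lyve1 held Igfbp5 at 11622 CPM against 2839 CPM in the 68 without. Of these 27, 1 cell of the 27-month male library gave 761 UMIs of Igfbp5. The barcode that Scrublet marked was also among them. Ackr2, a scavenger of inflammatory chemokines known from lymphatic capillaries, was seen in 11 of the 27 against 4 of the 68.

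Ackr4 was found in 35 LECs, of which 0 held Ccl21a, 1 held Lyve1 and all 35 held Foxp2. They came from the 20-month (2), 27-month male (9) and 28-month female (24) libraries. Ccl21a itself was in 2, 6 and 10 LECs of these libraries, so few that little overlap could be seen, above all in the 20-month library. Cells of 1 library share a mouse and a preparation, and these contrasts among cells are a description with no test.

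**Figure D5:**
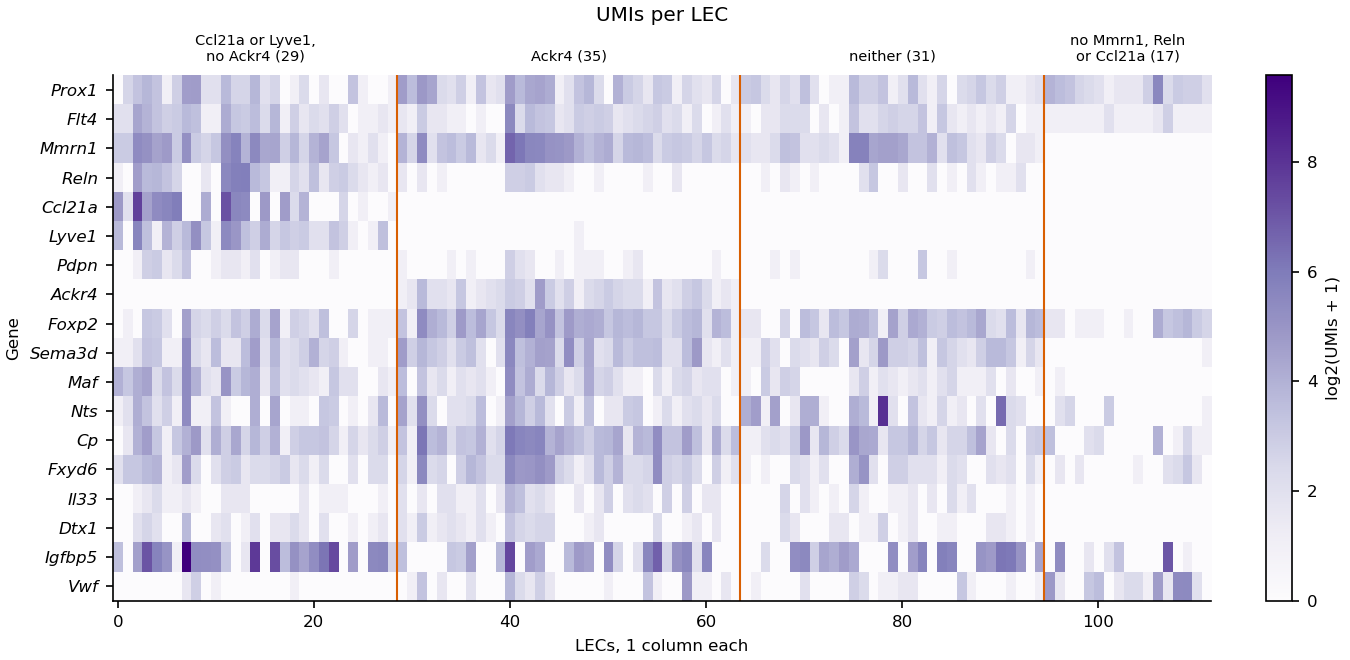
UMIs of 18 genes in each of the 112 LECs, 1 column for each cell, as log2(UMIs + 1), split into 29 cells with Ccl21a or Lyve1 and no Ackr4, 35 with Ackr4, 31 with neither and 17 with no Mmrn1, Reln or Ccl21a. Foxp2, Sema3d, Cp and Mmrn1 run through the first 3 sets. The 17 cells at the right hold Prox1 and Flt4 and lack Mmrn1 by the way they were chosen. They often hold Vwf and Foxp2, and some hold Cp.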

How the data were processed

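Single-cell suspensions of proximal PA from old and young mice were made into 10x 3′ libraries. The authors deposited, for each library, a matrix of raw UMI counts per gene and barcode with low barcodes included. The submitters' processing notes name cutadapt, STAR, STARsolo and GRCm38.p6. From the deposited counts, barcodes and LECs were chosen by the rule in the opening. Cells were not clustered, and Scrublet (scanpy 1.11.5) marks were used only as an alternative. UMIs were summed per library and class where at least 10 cells were present. Genes had to be seen in over 5% of cells in at least 3 of these profiles. They were tested with edgeR 4.0.16 in R 4.3.3 (TMM, library and class as terms). On simulated counts for the 9155 genes this recovered 86.5% of 200 genes changed 4-fold, with 4 false calls. The simulation gave every gene the same spread between libraries (dispersion 0.0337). It therefore does not cover genes whose spread was larger. DESeq2 1.42.0, thinning and other filters were tried as alternatives. Shares were compared by an exact permutation test over libraries.

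The members and gene lists were chosen with earlier results of these data known. Named genes were the 13 rule genes, called members of 15 lists and up to 4 abundant uncalled members of each, and the 12 largest rises and 12 largest falls with the same sign in every library fitted. Of the young mice in the study's text, 1 more is not analysed here. The gene identifiers carry later versions than their stated build, so no coordinates come from the count files. Promoters are from RefSeq, matched by symbol.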

Additional observations from a re-analysis of the deposited data

Results flagged for a closer look

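Lymphatic transcripts appeared in the young libraries outside the barcodes that were compared. In barcodes of 10 to 100 UMIs, which mostly hold free RNA, the 3-month library had 78 UMIs of Prox1, 121 of Mmrn1, 127 of Flt4 and 877 of Reln. The 3-month female library had 44 of Prox1, 45 of Mmrn1, 45 of Flt4 and 197 of Reln. These counts are of transcripts, not cells, and are given because no comparison used these barcodes. With Ccl21a added, the 5 lymphatic genes came to 260 and 119 CPM of these barcodes (3-month and 3-month female). The same sum was 137, 106, 22.9 and 49.4 CPM in the 20-month, 24-month, 27-month male and 28-month female libraries. Reln gave most of these UMIs in both young libraries. In the 20-month and 24-month libraries Reln came to 132 and 156 UMIs and Prox1 to 139 and 108. The 28-month female value rests on 4 UMIs of Mmrn1 and 1 each of Flt4, Reln and Ccl21a. Among barcodes with 100 or more but fewer than 500 UMIs, 0 in either young library met the rule for LECs on its gene terms. The old libraries held 0 (20-month), 1 (24-month), 0 (27-month male) and 1 (28-month female) such barcodes. The rule was thus seldom met at this depth in any library. Whether these transcripts came from LECs that were lost or from other cells was not tested. None of the 4 groups of values large enough for a test of single outlying libraries held one.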

How the results depend on the processing

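The young libraries held 0 LECs under every alternative run, so the direction of the difference in LEC share could not change, and 4 against 2 libraries cannot pass the threshold. Leaving out 1 library at a time gave 5.79 to 8.46 percentage points of ECs and 0.718 to 1.26 points of kept barcodes. The count of 1196 genes called moved more. DESeq2 called 699 (355 higher, 344 lower), a fit with no library term 331 (158 higher, 173 lower), and cells thinned to 500 UMIs 257 (114 higher, 143 lower) of 2133 genes tested (12.05%). Leaving out 1 library gave 432 (without the 27-month male) to 907 (without the 20-month), with 184 to 426 higher and 238 to 481 lower, and 449 without the 28-month female. The remaining alternatives gave counts within 1.5 times of the original. Without TMM scaling the median log2 difference was 0.05 in place of -0.06. That fit called 655 genes higher and 561 lower, so the balance of directions turned. Of 110 called genes named here, 44 passed in every alternative that tested them. With 2 libraries the filter drops genes seen in LECs alone, so many of the largest rises were not tested there. Fn1 changed sign, to -0.0437, with members holding Mmrn1, Reln or Ccl21a only, a choice under which 7 of 8 uncalled genes named here passed, Lyve1, Foxp2 and Igfbp5 among them. Lyve1 ranged from -0.0882 (without the 27-month male) to 1.02 when 1 library was left out. The planned comparisons of old with young LECs were not run, as the young libraries held 0 LECs. No paired analysis was possible because the labels give the old and young libraries no shared numbers. Median UMIs per EC were lowest in the 3-month, 3-month female and 24-month libraries.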

Other observations

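Neighbouring genes were often called together. Neighbours were taken in the RefSeq order of the tested genes alone, so untested genes can lie between them. Of 539 genes higher in LECs with a place in that order, 135 (25.0%) stood beside another gene that was higher. The share was 11.4% of the 9056 tested genes placed. Of 638 lower genes 171 (26.8%) stood beside another lower gene, against 13.5%. Besides Duox2 with Duoxa2 and Sema3d with Sema3a, adjacent genes that were both higher included Dusp2 with Astl and Nr2f2 with the RNA B130024G19Rik. Klk10 stood beside 2310002F09Rik, and both were lower. Overlapping genes can share reads, and these shares are a description with no test.

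In the 28-month female library 1 LEC held 20 UMIs of Mki67 and 24 of Top2a, both markers of dividing cells, and Mki67 was seen in 2 LECs there. Gpm6a, a membrane glycoprotein that was on the list of mesothelial markers, stood at 331, 383 and 508 CPM in LECs of the 20-month, 27-month male and 28-month female libraries against 41.4, 31.5 and 52.4 CPM in other ECs, 3.17 higher on the log2 scale (adjusted p = 6.53e-11 by edgeR).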
